A study of Mus musculus with 12 samples.

Results

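Replication licensing is the loading of the MCM helicase onto origins of DNA replication. 10 genes of this machinery were followed in mouse oocytes that lack the RNA-binding protein gene Lsm14b. They encode 4 subunits of the origin recognition complex (Orc1, Orc2, Orc4 and Orc6), the loading factors Cdc6 and Cdt1, the Cdt1 inhibitor geminin (Gmnn), and 3 subunits of the helicase (Mcm2, Mcm5 and Mcm7). The genes were chosen by symbol, with earlier results of these data known. All 10 were present among the 22801 genes measured at metaphase II (MII, the mature egg). Of the 10, Gmnn was the 1 listed among the 3475 genes of the germinal vesicle (GV) table, the stage of arrest before maturation. The GV table held genes that the authors had selected for a difference, so the other 9 genes were not selected there, which does not show that they were equal.

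Conditional knockout oocytes (CKO) carried Lsm14b fl/fl with Gdf9-Cre, a recombinase driven by an oocyte promoter that is active from early follicles onwards. Control oocytes (WT) carried the same floxed alleles without Cre, so the WT group is floxed and not wild type at the locus. All females were C57BL/6 at postnatal day 35, and each library was made from 15 pooled oocytes. There were 3 biological replicates in each of the 4 groups CKO GV, WT GV, CKO MII and WT MII, 12 libraries in all.

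In dividing cells the origin recognition complex marks origins, CDC6 and CDT1 join it, and together they load MCM helicases in G1. Geminin binds CDT1 and blocks further loading until the anaphase-promoting complex destroys geminin at the end of mitosis. An oocyte passes from the first to the second meiotic division with no DNA replication in between and stores much of this machinery as mRNA and protein for the embryo's first S phase. In frog oocytes, CDC6 is made anew during maturation, which gives the egg its competence to replicate.

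The knockout was visible in the targeted transcript. Lsm14b was at 1436 ± 164 normalized read counts in CKO GV oocytes and 22931 ± 6257 in WT GV oocytes, and at 908 ± 80.9 in CKO MII eggs and 11051 ± 524 in WT MII eggs (SD, n = 3 each). At MII the CKO libraries held 23077585 to 40530314 reads and the WT libraries 88494525 to 124872889. WT MII replicate 3 stood apart, since its rank correlation over genes (Spearman) with any other MII library was 0.847 to 0.877, while pairs of the remaining 5 reached 0.899 to 0.940. Each member's difference at MII is therefore also given without it. The 10 oocyte markers summed to between 650949 and 748802 normalized counts in CKO eggs and between 570157 and 688779 in WT eggs. Within these sums Zp2, Zp3 and Nlrp5 were higher in each CKO library and Bmp15 was lower, while the others overlapped. Zp2 was at 129172, 144760 and 108356 in CKO and 82058, 73628 and 30386 in WT. Bmp15 was at 47016, 62545 and 78335 in CKO and 113206, 122875 and 159949 in WT. The 11 measured cumulus and granulosa markers summed to 3418 to 4326 in CKO and 2933 to 5214 in WT, mostly from Nr5a2 and Cyp19a1. Of the 11, 4 to 6 were at 0 in each CKO library and 2 to 5 in each WT library. Nr5a2 was higher in each CKO library, at 2298, 2474 and 2865 in CKO and 1572, 1697 and 1834 in WT. Fshr was higher in each CKO library too, at 157, 96.2 and 90.9 in CKO and 34.2, 4.79 and 0 in WT (limma adjusted p = 0.181). The other cumulus and granulosa markers overlapped, and Amh and Hsd17b1 were at 0 in all CKO libraries and in 2 of the WT libraries. The 6 measured theca, stroma and endothelium markers summed to 3941 to 4576 in CKO and 3660 to 4705 in WT, mostly from Pecam1. Tie1 was lower in each CKO library, at 297, 160 and 158 in CKO and 703, 446 and 695 in WT (limma adjusted p = 0.142), and so was Kdr. None of the 10 oocyte, 10 cumulus and granulosa, 5 theca, stroma and endothelium, and 8 proliferating cell markers tested was called by limma. The 3 measured blood and immune markers summed to 194 to 215 in CKO and 1118 to 1925 in WT, mostly from C1qb, which limma called lower. The 8 markers of proliferating cells, which oocytes also express, summed to 52542 to 63348 in CKO and 43166 to 55250 in WT. Among them Birc5, Ccnb2 and Cdk1 were higher in each CKO library and Top2a was lower, while the others overlapped. The part of other cells in the results was not tested.

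Mature eggs without Lsm14b had less geminin mRNA than control eggs in each library, and Cdc6, Mcm7 and Orc6 were also lower in each CKO library than in each WT library. Orc4 and Orc2 were higher in each CKO library. Orc1, Cdt1, Mcm2 and Mcm5 overlapped between the genotypes. None of these differences passed the test used here, limma with Benjamini-Hochberg adjustment over 20388 genes, which called 1.51% of all genes. 5 of the 10 members had an unadjusted limma p under 0.05, 1 higher and 4 lower, where 6.70% of all genes were higher and 9.28% lower by that rule. Across all genes 10.4% lay higher in each CKO library and 12.0% lower, and of the 10 members 2 lay higher and 4 lower. Because the members were chosen with earlier results of these data known, these shares cannot be read as an excess over all genes. Limma-voom on the recovered reads called 0 of the 10 members and 0.858% of all genes. The authors' deposited table called 2 members, Gmnn and Cdc6, at an adjusted p under 0.05, both lower, and 11.5% of its 16042 genes with an adjusted p, 6.94% as lower. With array weights, which let a library that fits poorly count for less, limma called Gmnn, Cdc6, Mcm7 and Orc4, and 15.6% of all genes. Without WT replicate 3 limma called 0 of the 10 and 4.37% of all genes, and limma-voom called Gmnn, Cdc6 and Mcm7 as lower and 9.30% of all genes. Values are RNA per pool after scaling, so fewer cells of a type and less RNA per cell cannot be told apart.

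**Figure D1:**
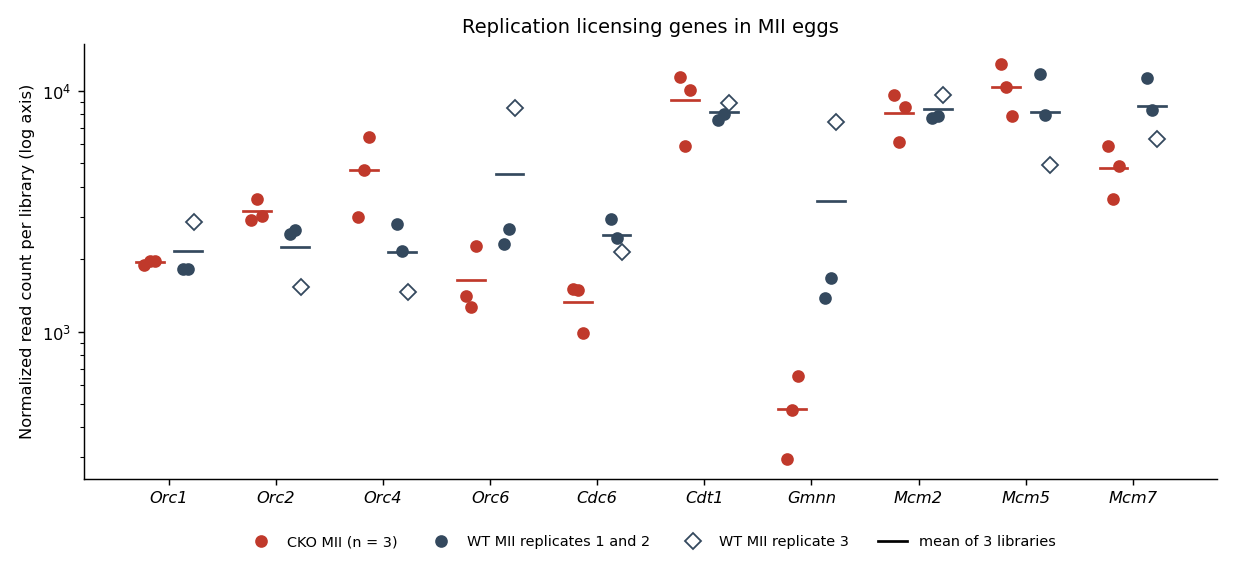
Normalized read count of each licensing gene in the 6 MII libraries on a log axis, with CKO left and WT right for each gene and a bar at each mean. The open diamond is WT MII replicate 3, at 7450 for Gmnn and 8520 for Orc6, against 1379 to 2670 in the other WT libraries for these genes.

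Geminin is encoded by Gmnn (ENSMUSG00000006715.11) on chromosome 13 from 24751845 to 24761923 on the minus strand (GRCm38, GENCODE M21), with no overlapping gene. At GV, Gmnn had 1665, 1998 and 1932 normalized counts in the CKO libraries, against 3722, 4233 and 3430 in the WT libraries. The highest CKO library lay well below the lowest WT library, and replicates of a genotype were close. GV values were available only for genes selected for a difference, so such a gap was favoured by the selection. The CKO mean was 49.1% of the WT mean at GV. In the authors' deposited table Gmnn fell, with a log2 fold change of -1.02 (SE 0.16, adjusted p = 1.45e-08). That table called 12.9% of the 21462 genes its adjusted p-values imply, 7.89% of them as lower in CKO. Each gene of that table differed by over 2-fold, and Gmnn lay just past this bound. An exact permutation test of 3 against 3 libraries cannot go below p = 0.1. Markers of other cells were also listed at GV. Of 11 theca, stroma and endothelium markers 4 were listed, all lower in CKO (Col1a2, Pdgfra, Kdr and Tie1), and together they summed to 127 to 372 normalized counts in CKO and 963 to 2032 in WT. Of 8 blood and immune markers 2 were listed, Cd68 as higher and C1qb as lower, and they summed to 1026 to 1129 in CKO and 1825 to 2162 in WT. None of the 10 oocyte, 15 cumulus and granulosa, and 8 proliferating cell markers was listed. Their part in the fall of Gmnn and in the GV differences of the pathway genes was not tested.

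At MII, Gmnn had 296, 473 and 656 normalized counts in the CKO eggs, against 1379, 1669 and 7450 in the WT eggs. The genotypes again did not overlap, and the WT libraries were far apart from each other because replicate 3 was 4.89 times the mean of the other 2. The CKO mean was 13.6% of the WT mean with all libraries and 31.2% without WT replicate 3. The limma log2 difference was -2.51 (SE 0.62, 95% interval -3.90 to -1.12, adjusted p = 0.0821). Without WT replicate 3 it was -1.75 (limma adjusted p = 0.0948), and with array weights it was -1.96 (limma adjusted p = 0.00488). Over 13 alternatives Gmnn stayed lower in CKO, from -3.23 to -1.75, with adjusted p from 0.00488 to 0.587. The -3.23 and the 0.587 came from a fit with a block per replicate number, in which no gene was called, Lsm14b included. In the authors' deposited table the log2 fold change of Gmnn at MII was -2.88 (adjusted p = 9.53e-04). Counting error was small beside these spreads, since Gmnn rested on 187 to 476 reads in the CKO libraries and 2339 to 14529 in the WT libraries. Gmnn was thus lower in CKO at both stages, but whether the difference was larger at MII was not tested, because the GV and MII values were scaled separately.

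**Figure D2:**
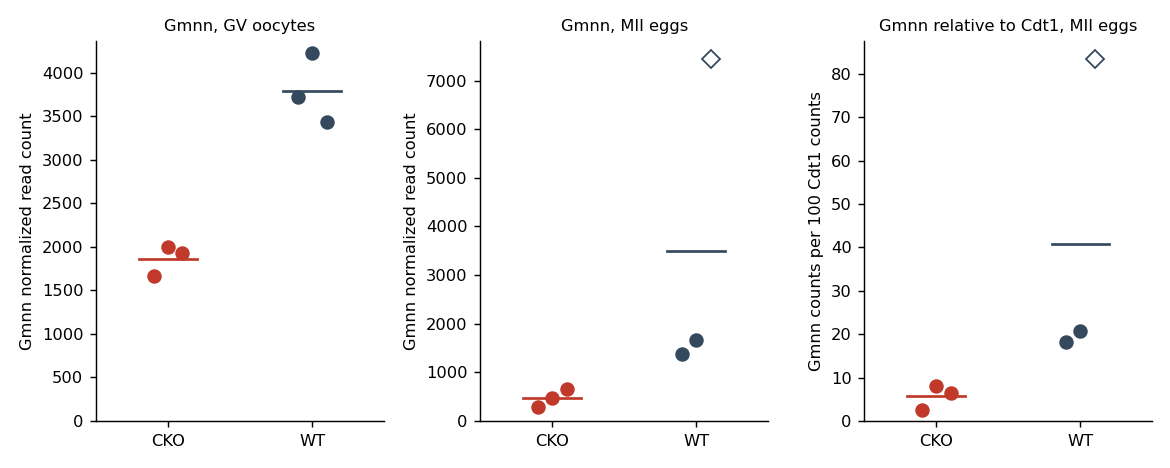
Gmnn normalized read counts in GV oocytes (left), in MII eggs (middle), and Gmnn counts per 100 Cdt1 counts in MII eggs (right), with CKO left of WT, a point per library and a bar at the mean of 3. CKO points lie below WT points in all 3 panels, and the open diamond is WT MII replicate 3. The gap in the right panel follows from the counts of Gmnn and Cdt1.

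Geminin acts on CDT1, so the ratio of their counts was read within each MII library, a measure added after the values were seen. Gmnn was at 2.58, 8.06 and 6.48 counts per 100 Cdt1 counts in CKO eggs and at 18.3, 20.8 and 83.5 in WT eggs. The groups did not overlap, which the counts of the 2 genes already fix, and the spread was wide in WT. Cdt1 itself had 11473, 5876 and 10114 normalized counts in CKO eggs, against 7541, 8012 and 8923 in WT eggs. Cdt1 therefore spread more within CKO than the genotypes differed, with a limma log2 difference of 0.11 (SE 0.31, 95% interval -0.59 to 0.82, adjusted p = 0.867). This interval leaves room for changes of Cdt1 in either direction, and the sign turned without CKO replicate 2 (-0.078). Without WT replicate 3 the difference was 0.18. The Cdt1 gene overlaps the gene model Gm20388 on the same strand, and the part of this overlap in the counts was not tested.

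Cdc6 encodes the ATPase that brings CDT1 and MCM to the origin recognition complex. It lies on chromosome 11 from 98907801 to 98923940 on the plus strand. Cdc6 had 1499, 1486 and 986 normalized counts in CKO eggs, against 2931, 2453 and 2147 in WT eggs. All CKO libraries were lower, and here WT replicate 3 was the nearest to them. The limma log2 difference was -0.94 (SE 0.32, 95% interval -1.66 to -0.21, adjusted p = 0.191). It was -0.92 with array weights (limma adjusted p = 0.0227) and -1.04 without WT replicate 3 (limma adjusted p = 0.109). The authors' deposited table gave -0.92 for Cdc6 at MII (adjusted p = 0.0389). The gene model Gm9430 matches 1528 bases of the Cdc6 transcript at 95.2% identity. It averaged 1.38 normalized counts in CKO and 5.33 in WT, small against Cdc6.

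Among the helicase subunits, none passed the limma test. Mcm7 lay lower in each CKO library, and Mcm2 and Mcm5 overlapped. The MCM2-7 ring unwinds DNA once it is activated, and each subunit is needed. Mcm7 had 5915, 3557 and 4857 normalized counts in CKO eggs, against 11327, 8306 and 6314 in WT eggs. The groups did not overlap, although the highest CKO library came close to WT replicate 3. The limma log2 difference of Mcm7 was -0.85 (SE 0.32, 95% interval -1.57 to -0.12, adjusted p = 0.238), with -0.89 under array weights (limma adjusted p = 0.0247) and -1.05 without WT replicate 3 (limma adjusted p = 0.134). Mcm7 lies on chromosome 5 from 138164583 to 138172422 on the minus strand, holds the microRNA genes Mir25, Mir93 and Mir106b, and shares 247 transcript bases with Ap4m1 on the other strand. Ap4m1 averaged 45.9 normalized counts in CKO and 79.7 in WT, and the Mcm7-like gene model Gm5487 (97.7% identity over 2157 bases) averaged 13.8 in CKO and 28.7 in WT. The Mcm7 gene also overlaps Cops6 on the other strand, which averaged 1055 ± 432 in CKO and 834 ± 54.7 in WT (SD, n = 3 each). The strand setting of the counting is not given in the sources used here, and the part of these overlaps in the Mcm7 counts was not tested.

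Mcm2 had 9614, 6137 and 8587 normalized counts in CKO eggs, against 7699, 7839 and 9616 in WT eggs. Its levels were mixed between the genotypes, with a limma log2 difference of -0.065 (SE 0.28, 95% interval -0.70 to 0.57, adjusted p = 0.919) that turned to 0.037 without WT replicate 3. Mcm5 had 12969, 10366 and 7862 normalized counts in CKO eggs, against 11703, 7923 and 4946 in WT eggs. The ranges overlapped over most of their length, with a limma log2 difference of 0.40 (SE 0.36, 95% interval -0.41 to 1.21, adjusted p = 0.626), or 0.081 without WT replicate 3.

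None of the 4 subunits of the origin recognition complex passed the limma test, and differences between subunits were not tested. Orc4, an ATPase-fold subunit of the core ring, had 2988, 4704 and 6426 normalized counts in CKO eggs, against 2791, 2158 and 1466 in WT eggs. The lowest CKO library was just above the highest WT library. The limma log2 difference of Orc4 was 1.12 (SE 0.38, 95% interval 0.28 to 1.96, adjusted p = 0.182), with 0.96 under array weights (limma adjusted p = 0.0326) and 0.87 without WT replicate 3 (limma adjusted p = 0.294). Orc4 (chromosome 2, 48902824 to 48950277, minus strand) shares 446 transcript bases with Acvr2a on the other strand, which averaged 633 ± 277 normalized counts in CKO and 927 ± 81.6 in WT (SD, n = 3 each). The Acvr2a mean was lower in CKO, where that of Orc4 was higher. The Orc4 gene also overlaps Mbd5 on the other strand, which averaged 4670 ± 943 in CKO and 5407 ± 3300 in WT (SD, n = 3 each). The part of these overlaps in the Orc4 counts was not tested.

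Orc6, the small subunit that in budding yeast binds CDT1, had 1400, 1261 and 2266 normalized counts in CKO eggs, against 2321, 2670 and 8520 in WT eggs. The highest CKO library almost reached the lowest WT library, and WT replicate 3 was 3.41 times the mean of the other 2. The limma log2 difference was -1.24 (SE 0.50, 95% interval -2.35 to -0.13, adjusted p = 0.26) and -0.65 without WT replicate 3 (limma adjusted p = 0.331). The CKO mean of Orc6 was 36.5% of the WT mean with all libraries and 65.8% without that replicate. The Orc6 gene overlaps Vps35 on the other strand, with no shared transcript stretch of at least 200 bases found. Vps35 averaged 3112 ± 981 normalized counts in CKO and 2283 ± 350 in WT (SD, n = 3 each). The part of this overlap in the Orc6 counts was not tested.

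Orc1, the subunit whose ATPase site meets ORC4, had 1885, 1972 and 1970 normalized counts in CKO eggs, against 1812, 1825 and 2855 in WT eggs. The CKO libraries lay between WT replicates 1 and 2 on one side and replicate 3 on the other, and the limma log2 difference was -0.12 (SE 0.31, 95% interval -0.82 to 0.58, adjusted p = 0.853). It was 0.094 without WT replicate 3, so its sign rested on that library. Orc2, which joins the core ring without ATPase activity, had 2916, 3572 and 3033 normalized counts in CKO eggs, against 2553, 2632 and 1537 in WT eggs. The Orc2 groups did not overlap, by a narrow gap, with a limma log2 difference of 0.54 (SE 0.32, 95% interval -0.18 to 1.25, adjusted p = 0.436), or 0.29 without WT replicate 3. Orc2 shares 686 transcript bases with Nif3l1 on the other strand, which averaged 1809 ± 315 normalized counts in CKO and 1214 ± 852 in WT (SD, n = 3 each), and without the strand setting their shared reads cannot be told apart.

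**Figure D3:**
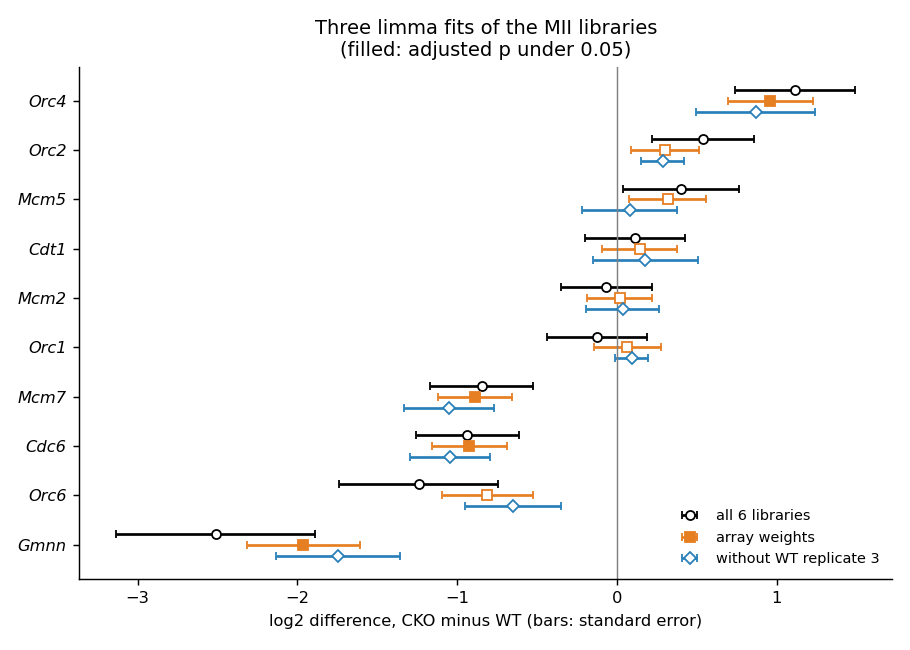
Log2 difference at MII, CKO minus WT, with its standard error for each licensing gene in 3 limma fits, ordered by the fit of all 6 libraries. Filled symbols passed an adjusted p under 0.05, which Gmnn, Cdc6, Mcm7 and Orc4 did with array weights.

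WT replicate 3 was the highest WT library for 5 of the 10 members and the lowest for the other 5. It was 0.504 times the mean of the other 2 WT libraries for Mcm5 and 4.89 times for Gmnn. Its distance from the other WT libraries thus went in both directions.

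Levels were compared between genes as normalized counts per kb of the GENCODE M21 transcript with the longest coding sequence. In CKO eggs Cdt1 was highest, at 4182 ± 1333 per kb, and Gmnn lowest, at 422 ± 160 per kb (SD, n = 3 each). In WT eggs Cdt1 was again highest, at 3727 ± 321 per kb, and Orc4 lowest, at 526 ± 163 per kb (SD, n = 3 each). From high to low the CKO order was Cdt1, Mcm5, Mcm2, Mcm7, Orc6, Orc4, Orc2, Orc1, Cdc6 and Gmnn. In CKO the neighbours Orc2 and Orc1, and Orc1 and Cdc6, had no overlap between their libraries, and all other neighbours overlapped. The WT order was Cdt1, Orc6, Gmnn, Mcm7, Mcm2, Mcm5, Cdc6, Orc1, Orc2 and Orc4. In WT the 1 gap without overlap lay between Mcm5 and Cdc6, so 6 genes formed an upper tier and 4 a lower tier. The place of Gmnn and Orc6 in the WT order leaned on WT replicate 3, as their SDs of 3039 and 2706 per kb show.

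**Figure D4:**
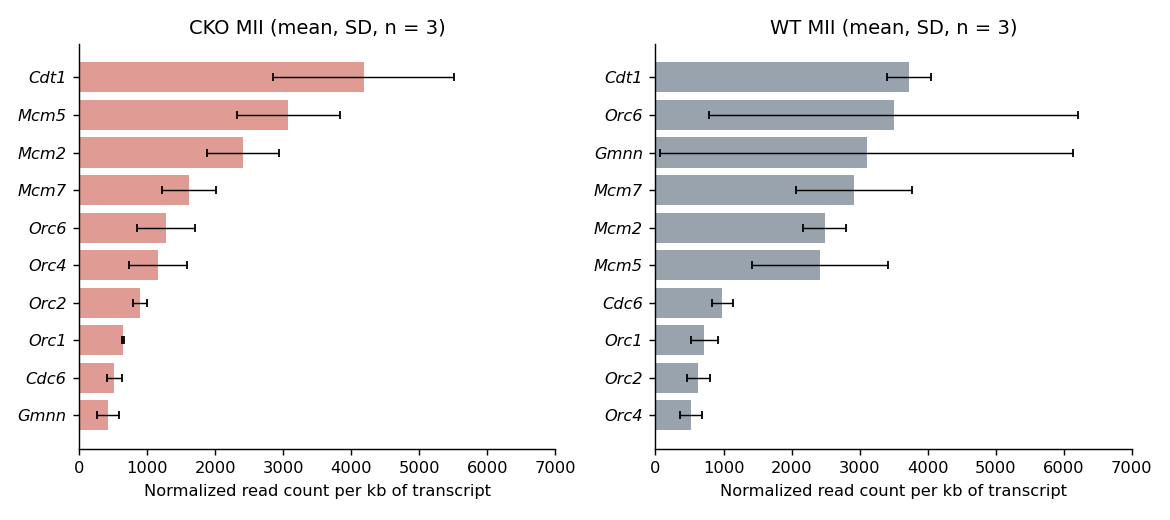
Mean normalized read count per kb of transcript, with SD over 3 libraries, for the licensing genes ordered by level in CKO MII eggs (left) and WT MII eggs (right). Gmnn is last in CKO, at 422 per kb, and in WT follows Cdt1 and Orc6, at 3105 per kb with an SD of 3039.

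Maternal mRNAs are often controlled in the oocyte through short elements near the 3′ end, among them the cytoplasmic polyadenylation element, which is bound by CPEB proteins. The letters TTTTAT or TTTTAAT were searched on the transcript strand in the last 100 bases of the annotated 3′ untranslated region. 7 of the 10 members held a match, as did 17.7% of 19127 protein-coding genes with at least 100 such bases. Matches were absent from this window in Orc2, Cdc6 and Mcm5. Gmnn and Orc6 had 2 matches each, and the other 5 had 1. The sites below are from GENCODE M21 transcripts, 5′ to 3′ in DNA letters, 30 bases each with the match in capitals. They are shown for the members lower in each CKO library that held a match, and for Orc4, which was higher.
Gmnn, first site: gtatTTTTAATccgttttatgtaaatagca
Gmnn, second site: tttttaatccgTTTTATgtaaatagcattt
Orc6, first site: catctcagacaTTTTATttggttttgtggt
Orc6, second site: ggttttttaaaTTTTATttcactaaatgtt
Mcm7: atgctgcacttTTTTATtctgccaataaag
Orc4: attgtaaataaTTTTATgcacattatacca
The Gmnn sites overlap in the bases shown, and start 96 and 86 bases before the annotated transcript end. The match is a description of the letters. Cdc6, lower in each CKO library, had none in its window, and Mcm2, Cdt1 and Orc1, which overlapped, had 1 each. Of the members shown, Gmnn, Orc6 and Mcm7 also held the polyadenylation signal letters AATAAA in the window, and Orc4 did not. These letters were found in 63.8% of the 19127 genes.

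Promoters of replication genes are known for E2F sites, which switch these genes on before S phase. RefSeq promoters (GRCm38.p6, 250 bases before to 50 after each start) matched 9 of the 10 members with 13 starts, all but Gmnn. The E2F letters TTTGGCGC, TTTCCCGC, TTTCGCGC and TTTGCCGC, searched on both strands, were found in 5 of the 13 member promoters, 1 each of Orc1, Cdc6, Cdt1, Mcm5 and Mcm7, and in 2.26% of all 32851 promoters. The CCAAT letters, bound by the factor NF-Y, were found in 9 of the 13 member promoters, of 7 genes, and in 37.4% of all promoters. The letters TTTGAA of the cell cycle homology region were found in 1 of the 13, that of Mcm2, and in 17.9% of all promoters. 4 promoters with an E2F match are shown 5′ to 3′ on the gene's strand, matches in capitals. Cdc6 and Mcm7 were lower in each CKO library, and Cdt1 and Mcm5 overlapped.
Cdc6, chr11:98907901-98908200, plus strand: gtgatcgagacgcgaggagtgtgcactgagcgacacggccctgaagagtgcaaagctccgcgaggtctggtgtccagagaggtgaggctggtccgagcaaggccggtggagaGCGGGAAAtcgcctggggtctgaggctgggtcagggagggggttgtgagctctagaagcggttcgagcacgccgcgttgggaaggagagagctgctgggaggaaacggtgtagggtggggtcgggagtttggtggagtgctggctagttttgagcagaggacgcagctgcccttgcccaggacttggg
Mcm7, chr5:138171834-138172133, minus strand: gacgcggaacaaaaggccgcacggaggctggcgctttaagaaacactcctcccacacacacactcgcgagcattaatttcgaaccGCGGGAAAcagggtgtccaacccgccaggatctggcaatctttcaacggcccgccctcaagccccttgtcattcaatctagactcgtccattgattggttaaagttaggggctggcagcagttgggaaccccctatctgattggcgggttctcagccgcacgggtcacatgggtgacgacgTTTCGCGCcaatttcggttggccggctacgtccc
Cdt1, chr8:122567765-122568064, plus strand: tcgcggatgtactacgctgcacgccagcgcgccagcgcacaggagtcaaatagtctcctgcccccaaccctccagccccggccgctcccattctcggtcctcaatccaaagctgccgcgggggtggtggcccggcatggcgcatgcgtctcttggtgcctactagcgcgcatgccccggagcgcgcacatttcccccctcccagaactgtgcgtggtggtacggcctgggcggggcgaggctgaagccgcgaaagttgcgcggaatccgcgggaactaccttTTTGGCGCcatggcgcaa
Mcm5, chr8:75109259-75109558, plus strand: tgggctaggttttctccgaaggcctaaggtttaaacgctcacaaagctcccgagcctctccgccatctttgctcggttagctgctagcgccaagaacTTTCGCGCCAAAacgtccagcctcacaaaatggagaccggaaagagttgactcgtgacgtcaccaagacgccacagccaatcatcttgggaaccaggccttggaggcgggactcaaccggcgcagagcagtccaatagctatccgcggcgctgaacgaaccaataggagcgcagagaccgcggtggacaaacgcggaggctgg
In Mcm5 a pair of matches on opposite strands overlap and form a single run of capitals. Orc1, which also held an E2F match, overlapped between the genotypes. No E2F match was found for Orc6, which was lower, for Orc2 and Orc4, which were higher, or for Mcm2, which overlapped. The part of E2F sites in the differences was not tested.

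The rest of the replication pathway was read from 6 lists with 98 measured genes at MII. Limma called 5 of the 98, 2 higher and 3 lower, beside 1.51% of all genes. The calls were scattered over the lists. The E2F-binding pocket protein gene Rbl1 was at 138, 129 and 62.0 normalized counts in CKO eggs, against 1492, 1548 and 584 in WT eggs, and fell by 3.41 on the log2 scale (SE 0.58, limma adjusted p = 0.0267). Rif1, which holds back origin firing, was at 3482, 6039 and 5654 in CKO and 16950, 18408 and 23329 in WT, and fell by 1.98 on the log2 scale (SE 0.31, limma adjusted p = 0.0204). Both genes showed wide gaps between the genotypes. Pole4, a small subunit of DNA polymerase epsilon, fell to 2588 ± 759 in CKO, against 9953 ± 4782 in WT (SD, n = 3 each; limma adjusted p = 0.0482). Pold1, the catalytic subunit of DNA polymerase delta, rose to 5643 ± 1529 in CKO, against 1262 ± 501 in WT (SD, n = 3 each; log2 difference 2.21, SE 0.39, limma adjusted p = 0.0283). Fbxo5, which encodes the EMI1 inhibitor of the complex that destroys geminin, rose to 5286 ± 453 in CKO, against 1709 ± 360 in WT (SD, n = 3 each; limma adjusted p = 0.0298). Without WT replicate 3 limma called 7 of the 98, 2 higher and 5 lower, and Pole4 was then at an adjusted p of 0.0770. Without any 1 of the other 5 libraries limma called 0 of all 20388 genes, Lsm14b included, and so 0 of the 98. Those fits therefore say nothing particular to these 5 calls.

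None of the other 10 genes of the pre-replicative complex was called by limma at MII, and 2 had an unadjusted p under 0.05. By that rule 6.70% of all genes were higher and 9.28% lower. The 10 genes comprise Orc3, Orc5, Mcm3, Mcm4, Mcm6, Mcm8, Mcm9, the MCM-binding gene Mcmbp, the ORC-associated gene Lrwd1 and the histone acetyltransferase gene Kat7. Their median log2 difference was 0.19, against -0.094 for the 10 members and -0.11 for all genes tested. Without WT replicate 3 these medians were -0.096, 0.059 and -0.15 in the same order, so those of both lists turned in sign. Mcm4 was lower in each CKO library, at 10853 ± 1130 normalized counts in CKO and 16883 ± 783 in WT (SD, n = 3 each; limma adjusted p = 0.251). Mcm8, which acts with MCM9 in recombination, was lower too, at 93.6 ± 48.9 in CKO and 353 ± 160 in WT (SD, n = 3 each; limma adjusted p = 0.195). Mcm4 and Mcm8 were called lower at MII in the authors' deposited table (adjusted p = 0.0393 for Mcm4 and 0.0278 for Mcm8). That table called 6.94% of its genes with an adjusted p as lower. Mcm9 was higher in each CKO library, and the other 7 overlapped, where 10.4% of all genes lay higher in each CKO library and 12.0% lower. Among the remaining lists the median log2 difference was -0.44 for origin firing and the CMG helicase, -0.0089 for licensing control and turnover, -0.25 for the replication fork, -0.14 for nucleotide supply and -0.56 for E2F and pocket proteins. Without WT replicate 3 the medians for licensing control (0.12) and nucleotide supply (0.43) lay above 0. Rif1 was the 1 call among 22 firing genes, Fbxo5 the 1 among 15 control genes, Pold1 and Pole4 the 2 among 29 fork genes, and Rbl1 the 1 among 12 E2F and pocket protein genes. None of the 10 nucleotide supply genes was called by limma, and 1 had an unadjusted p under 0.05, near the shares of all genes given above.

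**Figure D5:**
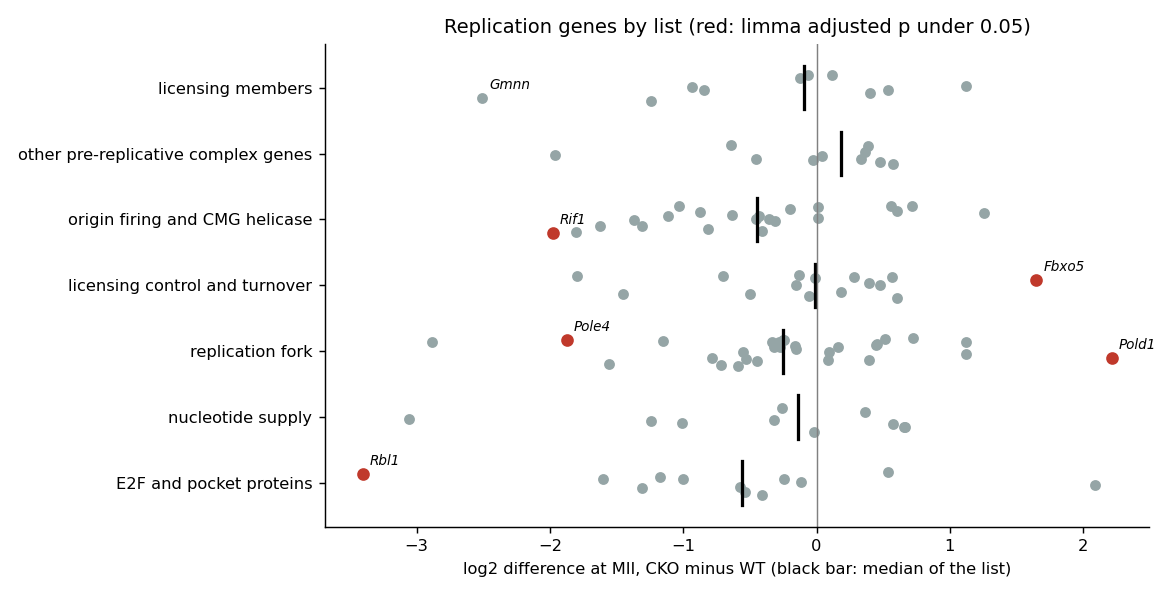
Log2 difference at MII, CKO minus WT, of each measured gene in the licensing set and 6 replication lists, with a black bar at each list's median. Red points are the 5 genes called by limma (Rif1, Fbxo5, Pole4, Pold1 and Rbl1), and Gmnn is named in the licensing set, at -2.51.

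At GV, 9 of the 102 genes of these lists were in the authors' deposited table with an adjusted p under 0.05, beside 12.9% of all genes, and 7 were lower and 2 higher. None of the other 10 pre-replicative complex genes was listed. The origin firing genes Dbf4, the activator of the CDC7 kinase, and Rif1 were lower. Dbf4 was at 8846, 7272 and 8412 normalized counts in CKO oocytes, against 25024, 22465 and 15134 in WT oocytes. Rif1 was at 11750, 11201 and 10924 in CKO, against 43966, 29582 and 29719 in WT, so it was lower in CKO in each library of both stages. Dtl, which directs the destruction of CDT1 on chromatin, fell to 12249 ± 853 in CKO, against 29501 ± 3495 in WT, and Skp2, the other ubiquitin ligase receptor for CDT1, to 261 ± 133 in CKO, against 651 ± 85.3 in WT (SD, n = 3 each). E2f2, Rbl1 and Rbl2 fell to 42.8%, 24.5% and 33.5% of their WT means. The sliding clamp gene Pcna rose to 19368 ± 2156 in CKO, against 9605 ± 2225 in WT, and the ribonucleotide reductase gene Rrm2 to 8401 ± 186 in CKO, against 3871 ± 927 in WT (SD, n = 3 each). The log2 fold changes of these 9 genes at GV in the authors' deposited table ran from -2.03 for Rbl1 to 1.12 for Rrm2.

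At MII, Rif1 and Rbl1 were the 2 of these 9 genes that limma also called. Dbf4 was at 2768 ± 1412 normalized counts in CKO eggs and 8262 ± 3233 in WT eggs (SD, n = 3 each; limma adjusted p = 0.0863). Pcna overlapped between the genotypes at MII, at 3443 ± 1564 in CKO and 4519 ± 3204 in WT (SD, n = 3 each; limma adjusted p = 0.781), and its log2 difference of -0.28 turned to 0.26 without WT replicate 3. Skp2 and E2f2 lay lower in each CKO library and Rrm2 higher, the side they had at GV. Skp2 was at 68.2 ± 2.08 in CKO and 193 ± 51.9 in WT (SD, n = 3 each; limma adjusted p = 0.324). E2f2 was at 3541 ± 1094 in CKO and 7369 ± 3535 in WT (SD, n = 3 each; limma adjusted p = 0.235). Rrm2 was at 1534 ± 225 in CKO and 992 ± 297 in WT (SD, n = 3 each; limma adjusted p = 0.381). Rbl2 overlapped, with a log2 difference of -1.31 (limma adjusted p = 0.316). Dtl had 6186, 7927 and 5784 in CKO eggs, against 15057, 15107 and 5331 in WT eggs, and overlapped through WT replicate 3 alone. Without that library Dtl had a limma log2 difference of -1.20 (adjusted p = 0.0459). Differences between the stages were not tested.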

How the data were processed

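RNA was sequenced from pools of 15 oocytes, per the labels' protocols. The sources used here do not give the aligner, counter, strand setting, genome build or annotation. The authors deposited, per library, log10(normalized count + 1), where a normalized count is a read count divided by the library's size factor. Per the file headers the authors' deposited tables hold further columns: p-values, raw and adjusted, the score of the test, the log2 fold change and its error, and a signal averaged over libraries. Values at GV and MII were scaled separately and tested only within a stage.

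Genotype was tested at MII on log2(normalized count + 1) with limma-trend (limma 3.58.1, R 4.3.3), over 20388 genes with a mean normalized count of at least 1, with Benjamini-Hochberg adjustment. Fold changes on that scale understate those of low genes. Limma-voom used whole reads recovered from the values (100% within 0.05 of a whole number). At GV the table held selected genes, so the authors' deposited test was used. The procedure was run on simulated data with larger changes than those of most members and with no library set apart like WT MII replicate 3. That run does not show how the procedure fares on such differences or with such a library.

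Members and lists were chosen with earlier results of these data known. Genes named outside the members were, per list and stage, those called, at most 4 by smallest p; Mcm4, Mcm8 and Mcm9, and the MII values of genes called at GV, were added after their values were seen. The rule's listing of genes with a like pattern was for members called by limma, and none was. Near copies were sought with BLAST 2.17.0 (at least 95% identity over 200 bases) in GENCODE M21.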

Additional observations from a re-analysis of the deposited data

How the results depend on the processing

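Each member had at least 187 reads in every MII library, and CKO libraries were shallower than WT libraries. Over 13 alternatives for each member at MII, 114 of 130 values kept direction and side of the threshold, 7 passed it newly and 9 turned in sign, of which the cause was not tested. No member was called with all libraries, so none could lose a call. Against 308 genes called by limma, limma-voom on recovered reads called 175 (90 higher, 85 lower, where limma had 106 and 202), array weights 3190, and the fit with a replicate block 0, with 528 higher and 968 lower at an unadjusted p under 0.05. The replicate block moved the 5 called pathway genes to 0, as it did the 308 genes, and Lsm14b then had a limma adjusted p of 0.587. In the MII libraries only replicate numbers 2 and 3 occur in both genotypes, so this fit had little left to estimate error. Its 0 calls therefore say nothing particular to these genes. Leaving out 1 library gave 0 to 890 genes, 0 members and 0 to 7 pathway genes; limma called 0 genes without any library other than WT MII replicate 3 (by unadjusted p under 0.05, 971 to 1278 genes were higher and 1409 to 1729 were lower), and Lsm14b, at -3.67 to -3.54 over all left-out libraries, kept its size while its adjusted p was 0.0636 to 0.152 without a library other than that one. Array weights called 4 members and 17 pathway genes, and limma-voom on recovered reads 2 pathway genes. Limma-voom without WT MII replicate 3, chosen after seeing the data, called 1897 genes, 3 members (Gmnn, Cdc6 and Mcm7) and 13 pathway genes. Signs turned for Orc1 with array weights (0.066) and limma-voom without WT replicate 3 (0.079), for Mcm2 in the same fits (0.019 and 0.043) and for Cdt1 with the replicate block (-0.042). Leaving out 1 library gave -0.23 to 0.094 for Orc1, -0.20 to 0.12 for Mcm2 and -0.078 to 0.40 for Cdt1. Limma-voom and leaving out WT replicate 2 each moved the median log2 difference of all genes, -0.11, by 0.11. At GV, the Gmnn log2 difference ran from -1.09 to -0.94 over 8 alternatives, and the authors' selection alone listed the same 1 member. The labels do not say whether same-numbered libraries of the genotypes share more than a number. Their deviations correlated at -0.012, 0.016 and 0.0010 at GV and at 0.013 and -0.10 at MII. Differently numbered libraries correlated at -0.029 to 0.030 at GV and at -0.099 to 0.13 at MII. With so few pairs, and selected genes at GV, these values cannot decide it.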
